A study of Mus musculus with 4 samples.

Results

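Ly49 receptors are the products of the Klra genes, and 6 of them, Klra1, Klra3, Klra5, Klra6, Klra7 and Klra9, were followed here through the thymic stages of invariant natural killer T (iNKT) cells in 2 genotypes. The members were chosen by gene symbol with earlier results of these data known, and they are the 6 genes with the most counts among the 11 Klra symbols in a table of 31053 genes. Transcript counts (unique molecular identifiers, UMIs) over all kept cells ran from 35054 for Klra1 through 15880 for Klra5, 11130 for Klra9, 6338 for Klra3 and 5274 for Klra7 to 1113 for Klra6, the member just inside. Klra8, just outside, had 285 UMIs, Klra10 had 160, Klra17 had 9, Klra4 had 8 and Klra2 had 0. The members held between 98.7% and 99.7% of the Klra UMIs of each library.

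The cells came from the thymus of untreated mice aged between 8 and 9 weeks. There were 2 C57BL/6 mice and 2 Hivep3-/- mice, 1 library for each animal, and the Hivep3-/- line had been backcrossed to C57BL/6. Thymocytes stained by PBS57-CD1d tetramers, which detect the lipid-reactive receptor of iNKT cells, were sorted as equal numbers of CD44 low and CD44 high cells, and their transcripts were tagged at the 5′ end in droplets. The sort fixes the ratio of the CD44 low and high cells, so shares of the stages among all cells are not those of the thymus. Whether the chromosome 6 region that holds the Klra genes is of C57BL/6 origin in the Hivep3-/- animals is stated in none of the sources read, and counts alone cannot tell an effect of Hivep3 from one of that region.

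Ly49 receptors are lectin-like proteins that sit as dimers on natural killer (NK) cells and on some T cells and bind MHC class I molecules on other cells. Most carry an inhibitory motif that recruits the phosphatase SHP-1 (Ptpn6), while a few signal through the adaptor DAP12 (Tyrobp) and activate. Each NK cell expresses its own small set of the genes, and iNKT cells that mature along the T-bet dependent iNKT1 path take up several NK receptors. Klra1 encodes Ly49A, Klra3 Ly49C, Klra5 Ly49E, Klra6 Ly49F, Klra7 Ly49G and Klra9 Ly49I, all with the inhibitory motif, whereas Klra4 (Ly49D) and Klra8 (Ly49H) encode activating receptors.

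The 6 genes lie on the minus strand of chromosome 6, in the NK gene complex, with Klra4, Klra8 and Klra10 among them. In the GENCODE vM21 annotation of GRCm38, the build of the matrices (mm10), Klra5 spans chr6:129898996-129917650, Klra6 chr6:130013033-130026954, Klra9 chr6:130178675-130193112, Klra7 chr6:130218605-130233322, Klra3 chr6:130323289-130337574 and Klra1 chr6:130363917-130386874. Klra3 and Klra9, which were the 2 members lower in Hivep3-/- iNKT1-like cells, were also the most alike: 96.4% of the bases of the shorter of their longest coding transcripts were identical. The nearest member was Klra5 for Klra6 at 91.8% identity and Klra7 for Klra1 at 86.0%. Klra10, which is no member, was 97.4% identical to Klra9 and 96.8% to Klra3.

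The likeness extends upstream of the genes. The stretches below lie upstream of the annotated starts of 4 members in the RefSeq promoter table (GRCm38.p6, minus strand). They are shown because they differ so little between members that move apart in the counts. Capitals mark the longest run of letters, 21 bases, that these 4 windows share before the start. Relative to the start, the run begins at -33 in Klra3, -52 in Klra9, -104 in Klra5 and -133 in Klra6. The stretches lie at chr6:130337627-130337719 for Klra3, chr6:130193124-130193224 for Klra9, chr6:129913288-129913388 for Klra5 and chr6:130027047-130027147 for Klra6. The RefSeq start used for Klra5 lies inside the GENCODE span of the gene.
Klra3: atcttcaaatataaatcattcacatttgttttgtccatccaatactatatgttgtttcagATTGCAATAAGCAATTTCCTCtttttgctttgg
Klra9: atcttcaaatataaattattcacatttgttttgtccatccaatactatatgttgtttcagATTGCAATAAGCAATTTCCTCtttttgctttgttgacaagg
Klra5: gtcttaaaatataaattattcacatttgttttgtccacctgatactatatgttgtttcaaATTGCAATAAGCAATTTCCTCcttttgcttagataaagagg
Klra6: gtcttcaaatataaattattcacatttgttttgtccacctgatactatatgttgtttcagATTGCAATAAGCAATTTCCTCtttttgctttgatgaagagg
The run was found, on either strand, in 5 of 32851 promoter windows, which is 0.0152%. Aligned over 101 columns, these stretches were 95.05% identical between Klra5 and Klra6 and 93.1% between Klra6 and Klra9. The Klra3 stretch is cut at the start and holds 93 bases, so some of its 101 columns hold no Klra3 base. Of its 93 bases, 92 were identical in the alignment with Klra9 and 85 in that with Klra5. Over 101 columns these are 91.1% and 84.2%, which are not comparable with the values of the longer stretches. The windows of Klra1 and Klra7 did not hold the run. The TCF/LEF core CTTTGAT, searched on both strands, was in the windows of Klra6 and Klra7, 2 of the 6 members, and in 3.21% of all windows. The RUNX core TGTGGT was in that of Klra1 and in 14.05% of all windows, and the T-box core AGGTGTGA was in none of the 6 and in 1.1202% of all windows.

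Near-identical genes can share reads. Of the 90-base windows of each member's longest coding transcript, none of Klra1, Klra5 or Klra6 occurred unchanged in a transcript of another Klra gene or pseudogene. The share was 3.05% for Klra3, 4.14% for Klra7 and 6.81% for Klra9, and among the first 500 windows, nearest the tagged 5′ end, it was 0% for each member. Read length is not given for these libraries, and shorter or mismatched reads of one member can still be counted as another, most readily between Klra3, Klra9 and Klra10.

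The 4 libraries held between 31381738 and 48291764 UMIs and 3651 to 7231 kept cells with a median of 4596 to 6833 UMIs, lower in both C57BL/6 libraries (4596 and 5268) than in the Hivep3-/- ones (6833 and 6491). Between 18 and 43 barcodes were shared by any pair of libraries. Xist was at 14609 UMIs in C57BL/6 replicate 1 and at 25 or fewer in the others, so sex differs within the C57BL/6 pair. Hivep3 itself was counted at 38.5 and 36.4 counts per 1000000 UMIs (CPM) in the C57BL/6 libraries and at 101 and 68.0 CPM in the Hivep3-/- ones; where its deletion lies is stated in none of the sources read, so a 5′ tag does not check the labels. Clusters were formed without any Klra gene and named from marker genes. The iNKT1-like class was made of 4 subclasses (early, cluster 0, cluster 4 and late), which carried Tbx21, which encodes T-bet, at 84.8 CPM or more in every library, against 27.9 CPM or less in iNKT2-like and 8.22 CPM or less in iNKT17-like cells. The interferon cluster 6 carried it at 88.7 to 138 CPM, as the iNKT1-like subclasses did, and was kept apart for its interferon response genes.

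Ly49 transcripts were high in the iNKT1-like cells and in the unnamed clusters 6 and 7, and their summed level was higher in late than in early iNKT1-like cells. CPM here relates a gene's UMIs to all UMIs that the class holds in a library, and since each UMI marks 1 tagged transcript end, levels are not divided by gene length. Summed over the members, C57BL/6 cells held 542 ± 2.14 CPM (mean ± SD, n = 2 libraries here and below) in the early iNKT1-like cluster (Izumo1r, Cxcr3), 756 ± 105 in cluster 0 (Fgl2, Rgs1, Klrc1), 834 ± 13.6 in cluster 4 (Gzmb, Gzmc) and 1130 ± 8.64 in late iNKT1-like cells (Ccl5, Gzma, Tyrobp). Clusters 0 and 4 did not differ beyond their spread. Cluster 7 (Tnni1, Htra3, Klrb1a), with Tbx21 at only 12.3 to 27.7 CPM, stood at 538 ± 18.2 CPM, level with early iNKT1-like cells, and the interferon cluster 6 at 468 ± 34.9. In Hivep3-/- libraries cluster 7 held 1038 ± 39.0, cluster 6 held 998 ± 84.0 and cycling-like cells 423 ± 3.86 CPM, beside 790 ± 1.05 in early and 1324 ± 28.9 in late iNKT1-like cells. The sums were 91.7 ± 21.9 CPM in iNKT2-like, 87.9 ± 4.12 in cycling-like, 69.7 ± 2.89 in stage 0-like and 23.7 ± 21.7 in iNKT17-like C57BL/6 cells, and the first 2 of these do not differ beyond their spread.

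**Figure D1:**
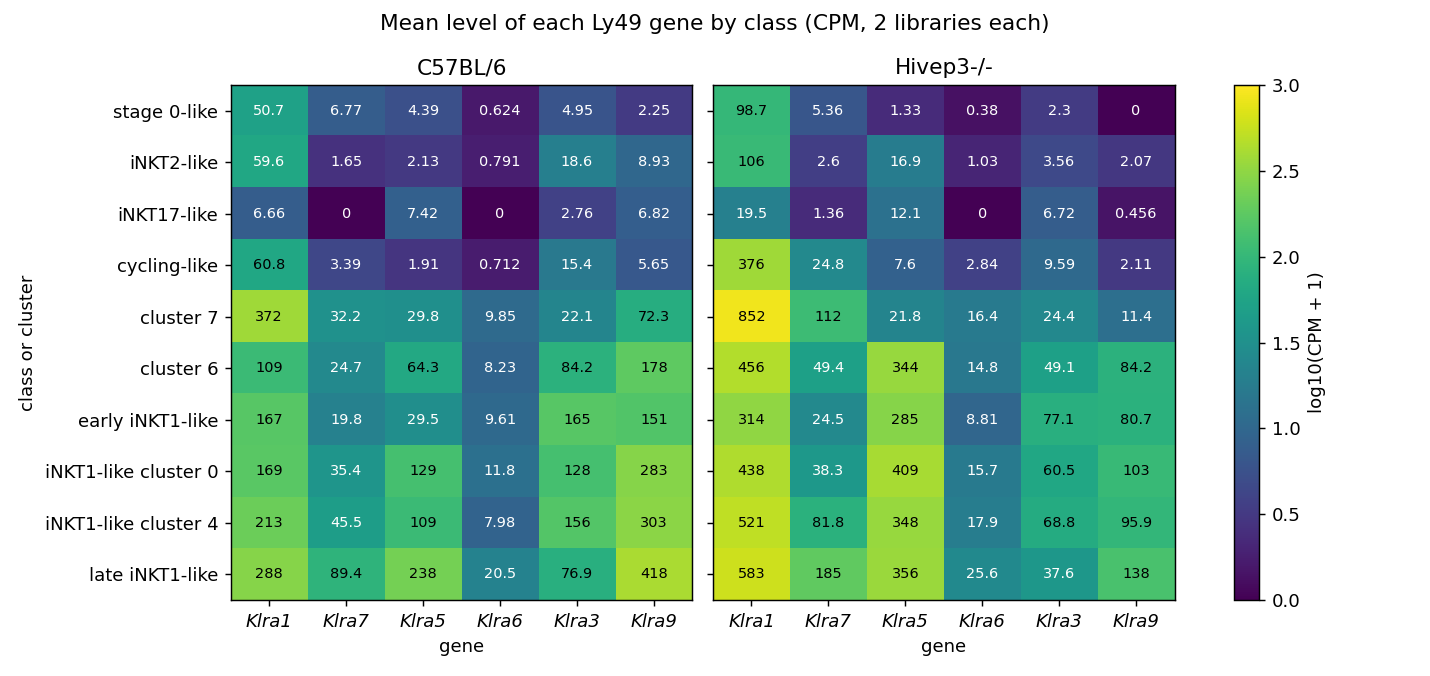
Mean level of each Ly49 gene (columns) in each class or cluster (rows) for C57BL/6 (left) and Hivep3-/- (right), as CPM over 2 libraries printed in each cell and coloured on a log10(CPM + 1) scale. Klra9 was high in iNKT1-like clusters and in the interferon cluster 6, as was Klra5 in Hivep3-/- libraries. In C57BL/6 libraries Klra5 stood at 29.5 CPM in early iNKT1-like cells, 29.8 in cluster 7 and 64.3 in cluster 6. Klra1 was also high in cluster 7 and, in Hivep3-/- libraries, in cycling-like cells at 376 CPM.

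The members did not share 1 course. In C57BL/6 cells Klra9 went from 151 ± 18.0 CPM in early to 418 ± 19.0 in late iNKT1-like cells, and Klra5 from 29.5 ± 11.6 to 238 ± 41.0. Klra7 went from 19.8 ± 7.96 to 89.4 ± 1.34 CPM and Klra1 from 167 ± 9.12 to 288 ± 33.6. Klra3 took the other direction, with 165 ± 27.1 CPM in early and 76.9 ± 16.8 in late cells. Because the clusters were cut from these cells, these orders are descriptions.

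Klra1 reached furthest outside that class. In stage 0-like cells Klra1 stood at 58.7 and 42.8 CPM in C57BL/6 and at 93.1 and 104 CPM in Hivep3-/- libraries. That class pools cluster 10, with Cd24a among its leading genes, and cluster 8, led by Gm43352, Nrgn and Siae. In iNKT17-like cells Klra1 stood at 11.5 and 1.84 CPM in C57BL/6 and at 26.5 and 12.5 CPM in Hivep3-/- libraries. Leaving aside cluster 14, which had 2 to 62 cells a library, the unnamed cluster 7 held the highest Klra1 levels, 412 and 331 CPM in C57BL/6 and 879 and 825 CPM in Hivep3-/- libraries. That cluster had 124, 19, 267 and 384 cells in the 4 libraries and was too small in C57BL/6 replicate 2 for a test. The other 5 members stood at 6.77 CPM or less in stage 0-like cells of either genotype, on average.

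To compare shares of cells across depths, cells were thinned to 2000 UMIs and shallower cells were left out. This kept 3048 of 3329 and 2230 of 2293 iNKT1-like cells in C57BL/6 and 2845 of 2886 and 2232 of 2257 in Hivep3-/- libraries, so the shares are those of the deeper cells, with the largest loss in C57BL/6 replicate 1. A member UMI was then seen in 51.1% (95% exact binomial interval 49.3 to 52.9) and 50.1% (48.0 to 52.2) of iNKT1-like cells of C57BL/6 replicates 1 and 2, and in 68.4% (66.7 to 70.1) and 70.9% (69.0 to 72.8) of those of the Hivep3-/- replicates. These intervals cover counting error only. The genotype difference of 19.0 percentage points was larger than the spread within either group, and the groups did not overlap, but with 2 libraries a group a two-sided exact permutation test cannot go below p = 0.3333, which it gave. Without thinning the shares were 57.9% ± 0.532 and 80.6% ± 2.56.

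In iNKT17-like cells, where the family is not known to be used, 2.93% ± 3.02 of C57BL/6 and 3.45% ± 0.598 of Hivep3-/- cells had a member UMI at the same thinned depth. Their median unthinned depth was 7210 UMIs, against 4346 to 6809 in the iNKT1-like clusters. The iNKT17-like share is given for comparison only, since free RNA was not measured. Stage 0-like cells, of which 267 of 374 and 105 of 119 in C57BL/6 and 373 of 394 and 383 of 426 in Hivep3-/- libraries were deep enough, stood at 6.50% ± 2.46 and 9.49% ± 3.19, and iNKT2-like cells at 10.0% ± 0.894 and 14.04% ± 3.26.

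Most Ly49-detected cells showed 1 member. At 2000 UMIs a detected iNKT1-like cell held a mean of 1.47 ± 0.00607 member genes in C57BL/6 and 1.52 ± 0.00692 in Hivep3-/- libraries, a difference of 0.0498 with no overlap (two-sided exact permutation p = 0.3333, the smallest this design allows). Cells with 2 or more members made up 36.2% ± 0.245 of the detected cells in C57BL/6 and 41.7% ± 0.211 in Hivep3-/-. No cell showed more than 5 of the 6. Since transcripts are missed at this depth, these are counts of members seen and not of members expressed.

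**Figure D2:**
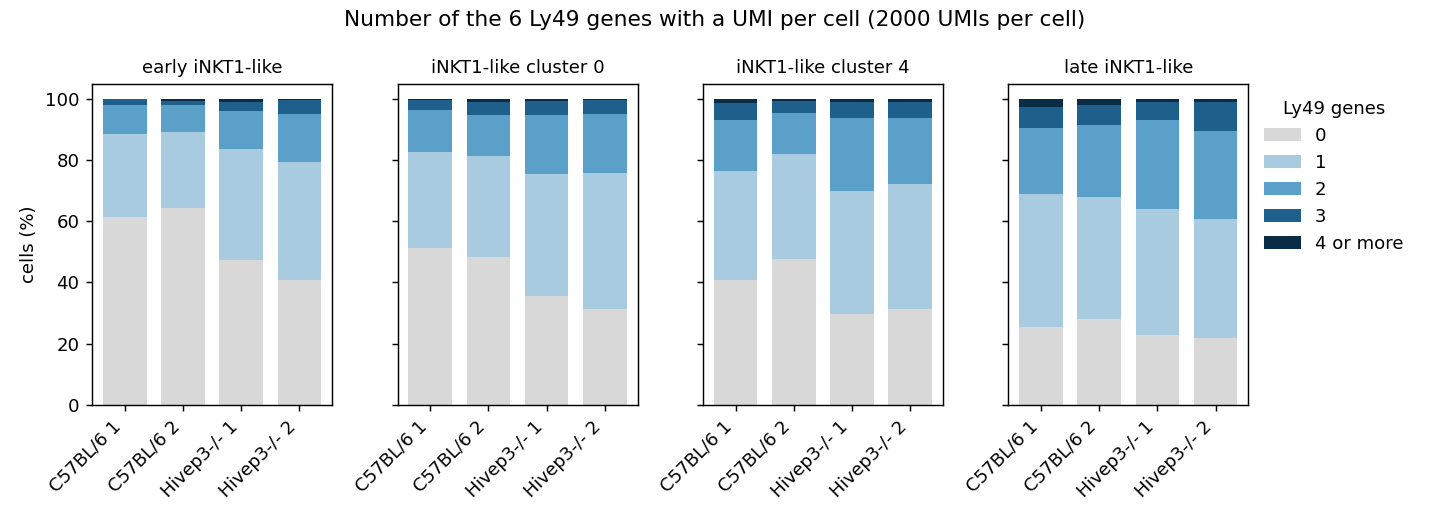
Share of cells (%) with UMIs of 0, 1, 2, 3 or 4 or more of the 6 Ly49 genes, 1 bar a library, after thinning each cell to 2000 UMIs, in the 4 iNKT1-like subclasses. The undetected share fell from early to late cells. In early cells a mean of 37.2% of C57BL/6 and 56.0% of Hivep3-/- cells were detected, the widest gap between means. The gaps were not tested against each other.

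The genotype difference in the detected share was not even along the iNKT1-like path. It was 18.8 percentage points in early cells, from 37.2% ± 2.14 to 56.0% ± 4.59, and 16.5 points in cluster 0. In cluster 4 it was 13.8 points. In late cells it was 4.45 points, from 73.2% ± 1.88 to 77.7% ± 0.748. Libraries of the genotypes did not overlap in any of the 4. Whether the gaps themselves differ was not tested.

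Within the whole iNKT1-like class the members split by genotype into those that were higher and those that were lower. In the edgeR fit across 10845 genes, 4 of the 6 members passed an adjusted p of 0.05, beside 0.839% of all genes tested. The CPM of the genotypes did not overlap for any of the 6. The share of all genes without overlap was not counted, so this is a description. Since the members were picked with results of these data in view, neither count is independent evidence.

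Klra1, which encodes the receptor Ly49A, was at 203 and 178 CPM in the C57BL/6 libraries and at 516 and 466 CPM in the Hivep3-/- ones. It rose by 1.28 ± 0.13 (log2 ± SE, adjusted p = 0.00702). Klra7, the Ly49G gene, was at 33.7 and 45.4 CPM against 93.6 and 91.8 CPM, and rose by 1.15 ± 0.17 (adjusted p = 0.0308). Both stood higher in each Hivep3-/- library than in either C57BL/6 library. The calls depended on the number of libraries: without C57BL/6 replicate 1 or 2 the adjusted p of Klra1 was 0.0681 and 0.0659, and that of Klra7 was 0.162 without C57BL/6 replicate 1, 0.0731 without Hivep3-/- replicate 1 and 0.0589 without Hivep3-/- replicate 2.

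Klra5, which encodes Ly49E, a receptor known from fetal NK cells, was at 82.7 and 144 CPM in C57BL/6 and at 307 and 422 CPM in Hivep3-/- libraries. The groups did not overlap, but both were spread widely, and the log2 difference of 1.61 ± 0.29 missed the threshold (adjusted p = 0.0612). It passed without C57BL/6 replicate 2 (0.0260) and without Hivep3-/- replicate 1 (0.0312), without scaling between libraries (0.0431), and with DESeq2 (1.08e-06). Klra6, the scarcest member, was at 9.52 and 13.3 CPM against 19.5 and 17.7 CPM, a log2 difference of 0.62 ± 0.20 (adjusted p = 0.33332).

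Klra3, the gene of Ly49C, a receptor for the H2-K1 product of this strain, was at 133 and 139 CPM in C57BL/6 and at 58.6 and 55.9 CPM in Hivep3-/- libraries. It fell by 1.33 ± 0.12 on the log2 scale (adjusted p = 0.00351). Klra9, which encodes Ly49I, was at 268 and 274 CPM against 113 and 106 CPM, a log2 difference of -1.39 ± 0.12, given as a description since a lower Klra9 was already known from these files. The replicates of either gene lay close together and far from the other genotype. Of the Klra genes that are no members, Klra10 differed by -2.01 ± 0.39 (adjusted p = 0.0756) and Klra8 by -1.08 ± 0.29 (adjusted p = 0.209).

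**Figure D3:**
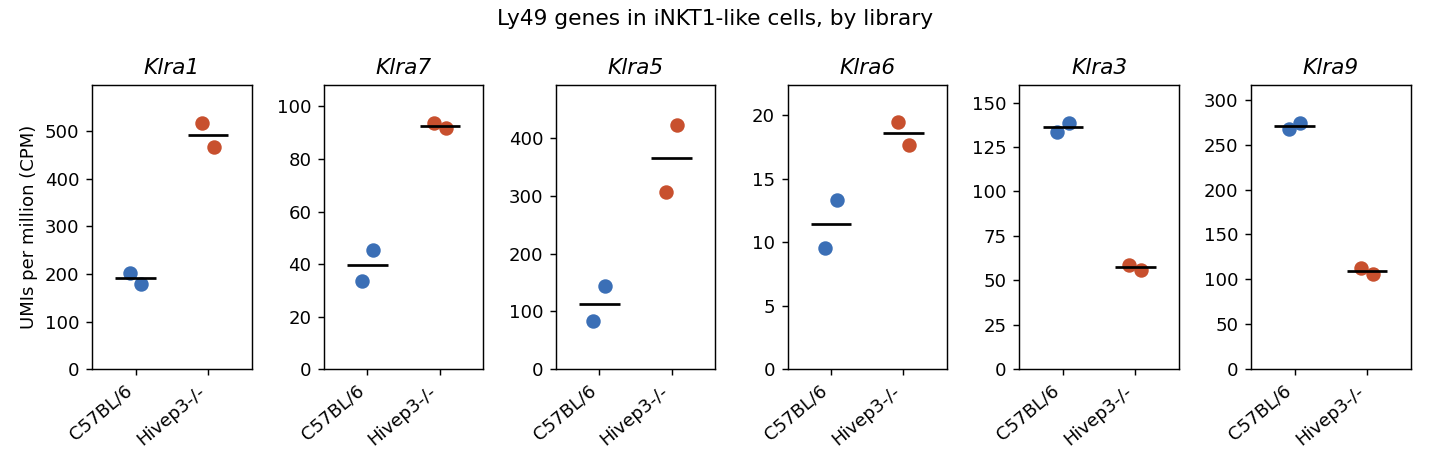
Level of each Ly49 gene (CPM, axes from 0) in iNKT1-like cells of each library (points) with the group mean (line). Klra1, Klra7, Klra5 and Klra6 sit higher in both Hivep3-/- libraries and Klra3 and Klra9 lower.

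The summed level rose less than its parts moved. It was 730 and 794 CPM in C57BL/6 and 1108 and 1160 CPM in Hivep3-/- libraries, while the make-up of those UMIs turned over. Klra9 supplied 36.7% and 34.5% of the member UMIs of iNKT1-like cells in C57BL/6 and 10.2% and 9.17% in Hivep3-/- libraries. Klra3 went from 18.3% and 17.5% to 5.29% and 4.82%. Klra1 went the other way, from 27.8% and 22.4% to 46.6% and 40.2%, and Klra5 from 11.3% and 18.2% to 27.7% and 36.4%.

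**Figure D4:**
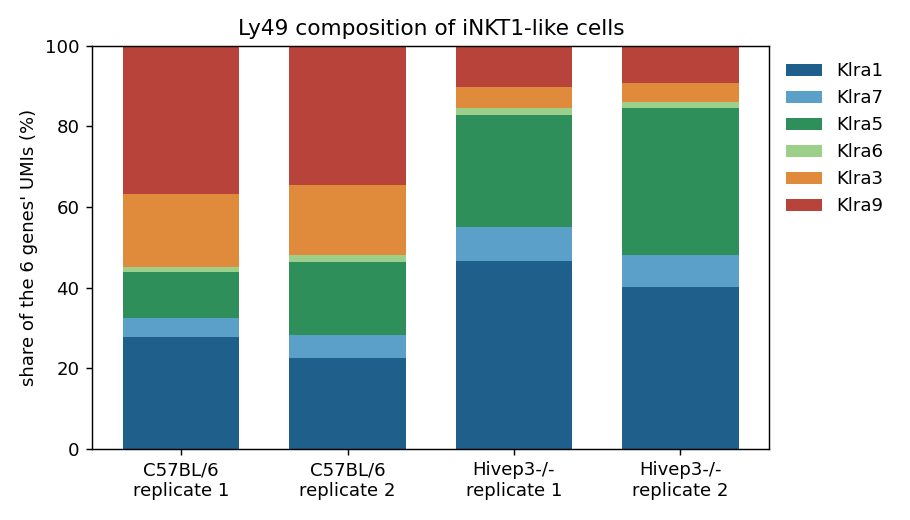
Share (%) of the 6 genes' UMIs that each gene supplied in iNKT1-like cells, 1 bar a library. Klra9 shrinks from 36.7% and 34.5% in the C57BL/6 bars to 10.2% and 9.17% in the Hivep3-/- bars, where Klra1 fills 46.6% and 40.2%.

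The iNKT1-like class did not have the same make-up in the genotypes. Late cells numbered 453 and 278 of it in C57BL/6 and 882 and 765 in Hivep3-/- libraries, and early cells 745 and 583 against 314 and 255. Each subclass was therefore fitted alone. Klra3 was lower in all 4 subclasses, by 1.09 to 1.26 on the log2 scale, and Klra9 by 0.98 to 1.73. Klra1 was higher in all 4, with log2 differences from 0.83 to 1.29.

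Between 1 and 4 members were called in a subclass. In early cells 1 of 6 members passed, Klra5, beside 0.196% of all genes. In cluster 0, 3 passed (Klra1 up, Klra3 and Klra9 down) beside 0.5%, in cluster 4, 4 passed (Klra1 and Klra5 up, Klra3 and Klra9 down) beside 0.477%, and in late cells 2 passed (Klra7 up, Klra9 down) beside 0.264%. Klra3 lost its call in cluster 0 without C57BL/6 replicate 1 (adjusted p = 0.0643) or Hivep3-/- replicate 1 (0.0826), Klra1 in cluster 4 without C57BL/6 replicate 2 (0.0542), and Klra7 in late cells without C57BL/6 replicate 1 (0.265) or 2 (0.0725). Klra7 in late cells also missed it without cluster 13 (0.0546), a small late cluster with 83 of its 107 cells in Hivep3-/- replicate 1.

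**Figure D5:**
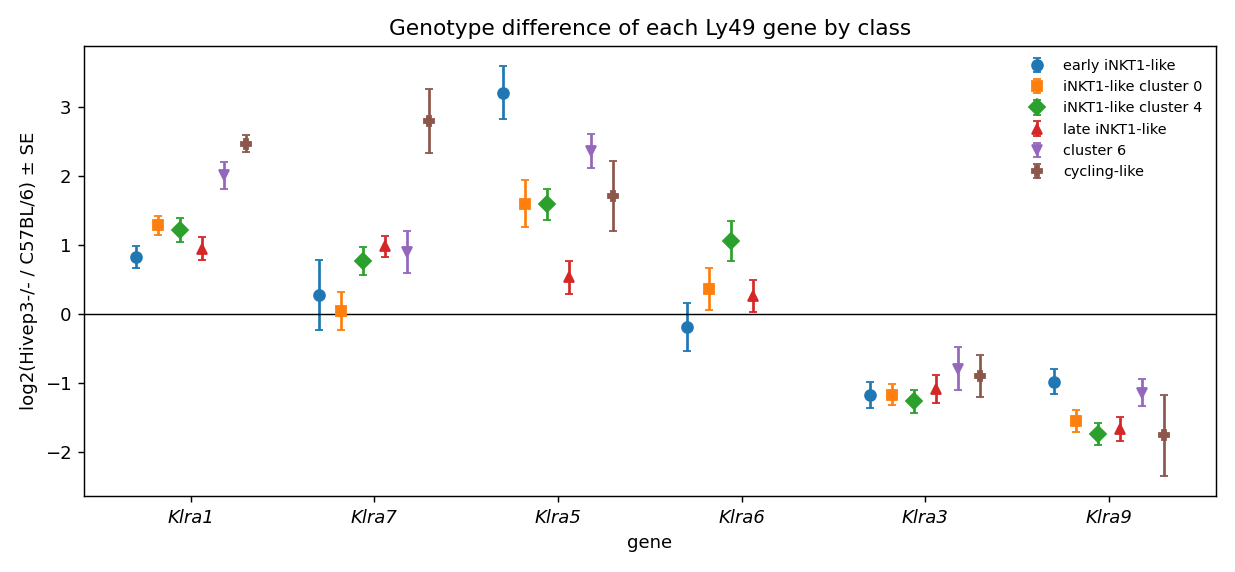
Genotype difference of each Ly49 gene, log2 of Hivep3-/- over C57BL/6 ± SE from the edgeR fit, by subclass or cluster (symbols). Klra3 and Klra9 lie below 0 in all 6, Klra1 above 0 in all 6, and Klra5 runs from 3.21 in early to 0.53 in late iNKT1-like cells.

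Klra5 was the member whose genotype difference depended on the stage. In early iNKT1-like cells it was at 21.4 and 37.7 CPM in C57BL/6 and at 198 and 372 CPM in Hivep3-/- libraries, a log2 rise of 3.21 ± 0.38 (adjusted p = 0.0319). In late cells it was at 209 and 267 CPM against 284 and 427 CPM, a log2 difference of 0.53 ± 0.23 (adjusted p = 0.821), and the genotypes overlapped there once scaled between libraries. Hivep3-/- early cells thus stood near the level of late cells, and C57BL/6 early cells far below it. The late difference minus the early one, tested in 1 fit with library as a block, was -2.65 ± 0.16 (adjusted p = 3.67e-07), and 1 of 6 members passed beside 0.535% of all genes. The early call alone was lost without C57BL/6 replicate 1 (adjusted p = 0.0865), Hivep3-/- replicate 1 (0.205) or Hivep3-/- replicate 2 (0.416) and without the filter on low counts (0.322), whereas the late minus early call held without each library in turn, at -2.91 to -2.46.

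For the other members the late minus early difference was 0.13 ± 0.10 for Klra1, 0.11 ± 0.21 for Klra3, 0.45 ± 0.35 for Klra6, 0.65 ± 0.39 for Klra7 and -0.73 ± 0.18 for Klra9, with adjusted p from 0.129 to 0.944. Klra9 in late cells was at 431 and 404 CPM in C57BL/6 and at 125 and 150 CPM in Hivep3-/- libraries, and in early cells at 138 and 164 CPM against 93.4 and 68.0 CPM. A second member passed when C57BL/6 replicate 2 or either Hivep3-/- library was left out.

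Members also differed by genotype in the cells kept apart from the iNKT1-like class. In the interferon cluster 6 (Ifit3, Ifit1, Rsad2), which carried Tbx21 and Il2rb (499 to 667 CPM) like the class itself, 3 of 5 members tested passed beside 0.446% of all genes: Klra1 by 2.01 ± 0.19 (117 and 101 CPM against 452 and 459 CPM), Klra5 by 2.36 ± 0.25 (52.4 and 76.2 CPM against 292 and 397 CPM) and Klra9 by -1.13 ± 0.19. The call of Klra9 there was lost without Hivep3-/- replicate 1 (adjusted p = 0.181) and without scaling between libraries (0.0505).

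In cycling-like cells (Mcm3, Top2a, Ccnb2), 2 of 5 members tested passed beside 2.35% of all genes. Klra1 rose by 2.47 ± 0.13 (adjusted p = 0.00106), from 59.0 and 62.7 CPM to 366 and 385 CPM. Klra7 rose by 2.80 ± 0.46 (adjusted p = 0.0346), from 1.97 and 4.80 CPM to 31.6 and 17.9 CPM, and missed the threshold without C57BL/6 replicate 1 (0.190), C57BL/6 replicate 2 (0.0510) or Hivep3-/- replicate 1 (0.0649). After thinning, 9.72% ± 2.75 of C57BL/6 and 39.3% ± 3.77 of Hivep3-/- cycling-like cells had a member UMI. Which of the other classes these dividing cells belong to was not tested.

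In iNKT2-like cells, the interleukin-4 producers, 1 of 4 members tested passed beside 0.232% of all genes. It was Klra5, which rose by 2.92 ± 0.35 (adjusted p = 0.0222) from 1.96 and 2.30 CPM to 21.1 and 12.8 CPM, and was not called without Hivep3-/- replicate 1 (0.0739). Only 4.77% ± 0.0865 of the unthinned Hivep3-/- iNKT2-like cells had a Klra5 UMI. The share was 3.05% ± 1.125 in iNKT17-like and 0.704% ± 0.996 in stage 0-like Hivep3-/- cells. Whether free RNA gave these UMIs was not tested. In stage 0-like cells 0 of 2 members tested passed beside 0.202% of all genes, with Klra1 at 0.81 ± 0.21 (adjusted p = 0.196, unadjusted p = 0.00251). In iNKT17-like cells 0 of 2 passed beside 0.0657%, with Klra1 at an unadjusted p of 0.0347. DESeq2 also called 0 members in either class and gave Klra7 in stage 0-like cells no adjusted p.

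Members were found together in cells unevenly. For each pair, the iNKT1-like cells with both genes at 2000 UMIs were compared with the number that the shares of the 2 genes would give if combined freely within a library. Klra6 and Klra7 were seen together in 73 cells where 16.6 would be given, with ratios from 3.16 to 6.48 over the 4 libraries. Klra1 and Klra7 were together in 333 cells (184 given, ratios 1.69 to 2.28) and Klra6 and Klra9 in 105 (46.3 given, ratios 2.01 to 2.47). Other pairs differed between the genotypes: Klra5 and Klra7 had ratios of 2.28 and 1.86 in C57BL/6 and of 0.635 and 0.744 in Hivep3-/- libraries, and Klra1 and Klra9 of 1.70 and 1.61 against 0.983 and 1.08. Klra3 and Klra9, the most similar in sequence, were together in 302 cells where 259 would be given, with ratios from 0.877 to 1.38, so they were not seen together in all libraries more often than their shares give. The shares were taken over the whole class, whose subclasses differ in these genes. Klra7, for example, was seen in 1.47% of early and 10.1% of late thinned cells of C57BL/6 replicate 1. Genes high in the same subclass can thus give ratios above those within a subclass, which were not computed. Cells of 1 library also share their source and depth, so these ratios are descriptions.

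Cells with a member UMI differed from the other iNKT1-like cells in many genes besides Ly49. Detected and undetected cells of each library, thinned to 2000 UMIs, were summed apart and fitted with the library as a block and all Klra genes left out, which set 8 sums from 4 mice against each other. Of 8925 genes, 343 passed (3.84%), 180 higher and 163 lower in detected cells. The largest rises were in Tyrobp, the DAP12 adaptor (1.90 ± 0.13, from 16.7 ± 10.5 to 61.3 ± 42.3 CPM over 4 libraries, adjusted p = 2.52e-21), and Fcer1g, another adaptor of NK receptors (1.39 ± 0.05, from 279 ± 132 to 711 ± 207 CPM). They were followed by Atp1b1 (1.32), the integrin gene Itga4 (1.21), Scimp (1.15), the NK receptor gene Klre1 (1.14), Gzma (1.01), Ifitm1 (0.995), Cd244 (0.96) and the chemokine gene Ccl5 (0.93), all log2 differences of called genes that rose in each of the 4 libraries.

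The genes lower in detected cells were led by Ckb, creatine kinase B, which fell by 1.78 ± 0.13 on the log2 scale (58.6 ± 29.955 to 16.9 ± 11.01 CPM), and by Il4, the cytokine of iNKT2 cells, which fell by 1.15 ± 0.10 (76.2 ± 30.3 to 34.3 ± 20.8 CPM). Krt83 (-1.10), Rora (-1.06), Lysmd2 (-0.94), Ly6a (-0.80), Prrt1 (-0.71), Runx1 (-0.69), Ralgps2 (-0.63) and F2rl2 (-0.62) followed, all lower in each library. Detected cells held more late cells, so the contrast partly sets late against early cells. Within late cells alone 15 genes passed. Of the 20 genes named above 11 were tested there and 5 were called (Tyrobp, Fcer1g, Atp1b1, Klre1 and Ly6a), while Ccl5 (0.14), Cd244 (0.23), Ifitm1 (0.28), Scimp (0.43), Itga4 (0.75) and Gzma (-0.06) were not. Within the other iNKT1-like cells 227 passed, 207 of them among the 343.

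By the gene lists, read beside the 3.84% of all genes called, 11 of the 12 NK receptor genes tested were higher in detected cells and 0 lower, with a median log2 difference of 0.44 beside -0.01 over all genes tested. Klre1 went from 90.8 ± 12.7 to 200 ± 47.2 CPM, Klrc2, an activating NKG2 chain, from 133 ± 36.4 to 217 ± 35.5 CPM, and Klrk1, the NKG2D gene, from 363 ± 41.3 to 475 ± 65.3 CPM. Of 8 signalling partners tested 2 were higher, the adaptors Tyrobp and Fcer1g, and Ptpn6, the SHP-1 gene on which inhibitory Ly49 depend, was at -0.01 ± 0.04. Of 9 effector genes 6 were higher, among them Ly6c2 (0.72 ± 0.03) and Ifng (0.47 ± 0.06).

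The MHC class I ligands and their loading genes were nearly level. Of 7 tested, 2 were lower, H2-K1 by -0.08 ± 0.02 and Tap2 by -0.21 ± 0.06, and the list's median was -0.05. Of 10 factors and cytokine receptors tested, 4 were called lower in detected cells. Lef1 (-0.58 ± 0.10), Runx1 (-0.69 ± 0.12) and Zbtb16, which encodes PLZF (-0.45 ± 0.09), were lower in all 4 libraries. Id2 (-0.10 ± 0.03) was lower in only 2 of them. Tcf7, which encodes TCF-1, a factor known to act at Ly49 genes, was at 0.25 ± 0.09 (adjusted p = 0.134).

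Markers of NK cells, another cell type with Ly49, were read beside these results. At 2000 UMIs the T cell gene Cd3e was seen in 93.6% to 95.5% of detected and in 93.8% to 96.1% of undetected iNKT1-like cells, with no background from cells that lack it. Of the NK markers, Ncr1 was seen in 0.0642% and 0.268% of detected C57BL/6 cells and in 2.16% and 2.65% of detected Hivep3-/- cells, and Eomes in 0% of C57BL/6 and in 0.771% and 0.253% of Hivep3-/- detected cells. Tyrobp, Klri2 and Itga2 were also seen in more of the detected cells of Hivep3-/- than of C57BL/6 libraries. Klrb1c went the other way, at 57.6% and 58.7% of detected C57BL/6 cells and 46.2% and 45.0% of detected Hivep3-/- cells. The shares of these markers move with genotype in either direction, and their part in the member levels was not tested.

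The same lists were read across genotype in iNKT1-like cells, where 0.839% of all genes were called. Of 15 NK receptor genes tested 3 were higher in Hivep3-/- and 0 lower, Ncr1 (3.82 ± 0.30), Klrb1a (2.06 ± 0.29) and Klri2 (1.11 ± 0.17), with a median log2 difference of 0.63 beside a median near 0 over all genes. Tyrobp was the 1 of 9 signalling partners called (2.11 ± 0.14), and Ccl5 the 1 of 9 effector genes (1.93 ± 0.15). Of 11 factors, Lef1 (-1.41 ± 0.14) and Runx1 (-1.34 ± 0.18) were lower and Eomes was higher. The Eomes call rests on very low levels. Scaled between libraries, they were 0.0844 and 0 CPM in C57BL/6 and 3.31 and 2.29 CPM in Hivep3-/-. None of 7 MHC class I genes was called, with a median of 0.16.

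Genes around the Ly49 cluster were looked at because the members adjoin them. From Klrb1a to Klra2, chr6:128609227-131247362, 21 genes other than Klra were tested and 3 were called, Klrb1a, Klri2 and Gm156 (2.48 ± 0.33), which is 14.3% of them beside 0.839% of all genes. All 3 were higher in Hivep3-/-, and 13 of the others were higher without being called, beside a median log2 difference of -0.005 over all genes tested. The rest were lower without being called, among them Klrb1c (-0.56 ± 0.13), Clec2i (-0.28 ± 0.21) and Cd69 (-0.28 ± 0.42). Klrd1 (0.14 ± 0.21), Klrk1 (-0.12 ± 0.15) and Klre1 (0.11 ± 0.19) had the smaller values, while their neighbours Klrc3 (0.82 ± 0.32), Klrc2 (0.45 ± 0.16), Klrc1 (0.63 ± 0.14) and Klri1 (2.74 ± 0.65) had larger ones that were not called. The bounds of the region were set after values were seen. Genes in cis and genes of 1 cell state cannot be told apart here.

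Across 39 sums of subclass and library (10 subclasses, sums with at least 50 cells, log2(CPM + 1)), the genes most like the summed members were Sytl2 (Pearson r = 0.94), Scimp (0.94), Pglyrp1 (0.94), Hvcn1 (0.92) and Il2rb (0.92), out of 5280 genes. Klra5 was most like Klrc1 and Klrc2 (both 0.95), Klra9 like Il12rb2 (0.96) and Samd3 (0.95), Klra7 like Fcer1g (0.94) and Itgb1 (0.91), Klra3 like Arsb (0.92) and Ifitm10 (0.90), Klra6 like Efhd2 (0.92) and Pglyrp1 (0.92), and Klra1 like Scimp (0.91) and Hvcn1 (0.89). Between members r was highest for Klra6 and Klra7 (0.91) and for Klra3 and Klra9 (0.91) and lowest for Klra1 and Klra9 (0.52). Sums of 1 library share its depth, and r describes these sums only.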

How the data were processed

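Single-cell 5′ RNA libraries of 4 mice were deposited as count matrices: per the labels and the submitters' processing notes, the authors aligned reads to mm10 and counted UMIs per gene and cell with Cell Ranger 3.1.0, and named Seurat 3.1.4. The deposited values are raw counts with no normalization. Annotation was GENCODE vM21, in which 99.62% of gene identifiers were found.

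Cells with 500 to 4100 genes, at least 1000 UMIs and at most 6% mitochondrial UMIs were kept. They were clustered in R 4.3.3 on 30 principal components of 2000 variable genes. Klra genes, Hivep3, T cell receptor segment genes and sex genes were excluded from these. The components were aligned between the 4 libraries by mutual nearest neighbours (k = 20), and clusters were cut at resolution 0.8 with Seurat 5.3.0. Genotype comparisons within a class rest on that alignment. Clusters were named where at least 3 markers of a class were among the top 20 genes, except clusters 4 (iNKT1-like), 5 and 11 (both cycling-like), which had 1 or 2 there and were named by their highest mean marker level. Scrublet (scanpy 1.11.5) called 0 to 5 doublets a library and so did not work, and removal of the 5% highest scores was an alternative.

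Counts were summed per library and class (at least 50 cells in every library) and tested with edgeR 4.0.16 (quasi-likelihood, filterByExpr, TMM, Benjamini-Hochberg, threshold 0.05). SE is the log2 difference over the root of F. Simulated counts with known folds were used to test the scripts. Alternatives were DESeq2 1.42.0, no filter, no TMM, a replicate block, other clusterings, other thinning depths and each library left out. The fits of cycling-like, iNKT2-like, stage 0-like and iNKT17-like cells, the late minus early test, and the versions with cluster 6 added or cluster 13 removed were chosen after seeing the data. The members and gene lists were chosen with earlier results of these data known. Named genes were the members, the other Klra genes, the genes most like the members (5 for their sum, 2 for each, mean of at least 20 CPM), the 10 largest rises and 10 largest falls of detected cells (called, at least 20 CPM, same direction in 4 libraries) and the called or leading members of the lists. With 1 library per mouse, p-values of the genotype fits measure the spread between 2 mice a group. The detected against undetected fit and the late minus early test held library as a block. Their p-values measure how far a difference taken within each library varies between libraries. Intervals cover counting error only.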

Additional observations from a re-analysis of the deposited data

Results flagged for a closer look

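Klra5 stood out because its genotype difference was not the same in early and late iNKT1-like cells. The late log2 difference minus the early one was -2.65 ± 0.16 (edgeR, adjusted p = 3.67e-07), with a rise of 3.21 in early and a difference of 0.53 in late cells. The test itself was added after seeing the data.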

How the results depend on the processing

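Calls on the members rest on 2 mice a group, and in most classes their number moved when a library was left out. Main counts were 4 members in iNKT1-like, 1 in early, 2 in late, 2 in cycling-like, 1 in iNKT2-like, 0 in stage 0-like and 0 in iNKT17-like cells, and 1 for late minus early. Leaving out each library gave 2 to 4, 0 to 1, 1 to 3, 1 to 2, 0 to 4, 0 to 1, 0 to 1 and 1 to 2. Without the low-count filter the counts were 0 in early, 4 in late, 6 in cycling-like, 4 in iNKT2-like and 1 in stage 0-like cells. DESeq2 called 3 in early and 2 in iNKT2-like cells. Over all kept cells 1 member was called, and the cause was not tested. Klra1 kept its direction under all 14 alternatives in iNKT1-like cells (log2 1.19 to 1.84), as did Klra3 (-1.37 to -0.89) and Klra9 (-1.42 to -0.93).

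The detected against undetected comparison gave 343 genes, against 65 with DESeq2, 15 in late cells alone, 227 in the rest of the class, 219 with the C57BL/6 libraries alone and 176 with the Hivep3-/- ones alone, and 230 to 298 without each library. Gzma turned from a log2 difference of 1.01 to -0.06 (-0.0589) in late cells alone.

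The labels number the mice 1 and 2 in either genotype without saying that a number marks a shared day or litter, and the deviations of same-numbered libraries correlated at r = 0.14 across 10845 genes. With the replicate number as a block, 4 members were called in late and 2 in iNKT2-like cells, and Klra5 in iNKT1-like cells had an adjusted p of 0.000325. The block moved the count by no more than 1.5 times in the other classes.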
